A study of Mus musculus with 11 samples.

Results

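The TNF superfamily comprises ligands, most of them membrane proteins that act as trimers, and the receptors that bind them. Receptors with a death domain, such as Fas and Tnfrsf1a, can start cell death or NF-kB signalling, while most others recruit TRAF adaptors, and decoy or soluble receptors capture ligand without signalling. In the lung epithelium the family is known mainly from its part in inflammation, cell death and repair. Open chromatin around these genes was followed here in fetal mouse lung epithelium at E17.5 with ATAC-seq, an assay that reads where a transposase can reach the DNA. A region was assigned to the protein-coding gene whose body lay nearest, at most 100 kb away, and belonged to the family if that symbol began with Tnfsf or Tnfrsf or was Tnf, Lta, Ltb, Ltbr, Cd40, Cd27, Cd70, Fas, Fasl or Eda2r. This gave 152 regions of 83262 tested, at 35 of the 42 family genes in the gene table.

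The 5 Prdm3/16KO libraries came from E17.5 lungs lacking Prdm16 and Prdm3 through floxed alleles of both genes and the ShhCre allele, which is active in the embryonic lung epithelium. Cre came from Prdm3fl/flPrdm16fl/wtShhCre+ males that were mated with Prdm3fl/flPrdm16fl/fl females. The 6 Control libraries came from E17.5 lungs labelled only as controls, and the sources used here do not give their alleles. In both genotypes EpCAM+ cells, EpCAM being a surface protein of epithelium, were collected with microbeads after red cell lysis. Nothing says whether each library came from a separate fetus, so p-values measure the spread between libraries, which may be technical.

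Each library was available as its own peak list, with no read counts and unknown read depth. The lists held 72935 to 85704 peaks in Prdm3/16KO libraries and 79525 to 112297 in controls, and all were limited to 72935. Each peak was then given a rank score, 1 for the strongest peak of its library and near 0 for the weakest kept. A region without a peak among those kept scored 0, so a missing peak may be one below the cut. A difference in score is a difference in rank and not a fold. Among 10 epithelial marker genes, 9 had an open region within 1 kb of a gene end in some library, and the summed scores of the list were 4.67 to 5.37 in Prdm3/16KO libraries and 5.20 to 5.77 in controls. The lists of 10 immune, 8 endothelial, 8 mesenchymal and 5 red cell markers had 3, 4, 4 and 3 open genes. Ptprc, Cd3e, Cd79a, Csf1r, Itgam and Itgb2 had no such region in any library, and neither had Pecam1, Cdh5, Tie1 and Emcn, while the endothelial gene Tek was at 0 in every Prdm3/16KO library and at 0.347 to 0.626 in controls. Open in every library were the immune genes Spi1, at 0.699 to 0.784 in Prdm3/16KO libraries and 0.637 to 0.719 in controls, and Lcp1, at 0.759 to 0.864 and 0.757 to 0.809 in the same order. So were the endothelial gene Erg, at 0.703 to 0.848 in Prdm3/16KO libraries and 0.701 to 0.834 in controls, and Kdr and Cldn5 at lower scores. Summed immune scores were 1.52 to 2.05 in Prdm3/16KO libraries and 1.49 to 2.02 in controls, and summed endothelial scores were 1.50 to 2.09 and 1.90 to 2.59 in the same order. Sums were 1.36 to 1.83 in Prdm3/16KO libraries and 1.56 to 1.89 in controls for mesenchyme, and 0.813 to 1.40 and 0.795 to 1.63 for red cells. The part of other cell types in the results was not tested. At the deleted genes, 9 of 20 Prdm16 regions and 21 of 46 Mecom (Prdm3) regions were called, in both directions, and which exons were floxed is not given, so the peaks give no check of the deletion. Prdm3/16KO replicate 5 stood apart with a peak in 77 of the 152 family regions, against 105 to 109 in the other knockout libraries and 105 to 126 in controls.

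Promoter sequences are shown for the genes whose start regions carry the results below. The start region ranked higher in Prdm3/16KO libraries at Eda2r and lower at Tnfrsf1a and Tnfsf10, while that of Fas was not called but lay near a region open only in knockouts. Each sequence runs 5′ to 3′ from 250 bases before to 50 after a start, from RefSeq on GRCm38.p6 (mm10), and promoters of 33 of the 42 family genes were in the table. They lie at chrX:97377160-97377459 on the minus strand (Eda2r), chr6:125349473-125349772 on the plus strand (Tnfrsf1a), chr3:27316827-27317126 on the plus strand (Tnfsf10) and chr19:34290409-34290708 on the plus strand (Fas). Capitals mark the motifs found.
Eda2r: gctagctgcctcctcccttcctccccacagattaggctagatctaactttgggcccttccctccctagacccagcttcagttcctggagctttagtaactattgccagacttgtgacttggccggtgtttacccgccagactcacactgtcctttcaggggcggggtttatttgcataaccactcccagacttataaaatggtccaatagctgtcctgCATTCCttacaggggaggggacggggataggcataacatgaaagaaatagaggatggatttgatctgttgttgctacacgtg
Tnfrsf1a: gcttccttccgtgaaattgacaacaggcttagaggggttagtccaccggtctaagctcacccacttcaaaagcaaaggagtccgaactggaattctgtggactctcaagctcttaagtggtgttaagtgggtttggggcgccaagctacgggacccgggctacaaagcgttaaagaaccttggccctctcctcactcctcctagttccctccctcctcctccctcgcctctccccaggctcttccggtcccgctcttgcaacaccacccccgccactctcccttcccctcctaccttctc
Tnfsf10: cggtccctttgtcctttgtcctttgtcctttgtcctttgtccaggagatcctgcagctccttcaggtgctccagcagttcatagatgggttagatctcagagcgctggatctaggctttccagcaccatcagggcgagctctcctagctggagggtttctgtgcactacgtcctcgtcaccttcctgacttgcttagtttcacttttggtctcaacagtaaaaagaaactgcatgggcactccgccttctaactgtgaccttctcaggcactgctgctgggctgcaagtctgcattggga
Fas: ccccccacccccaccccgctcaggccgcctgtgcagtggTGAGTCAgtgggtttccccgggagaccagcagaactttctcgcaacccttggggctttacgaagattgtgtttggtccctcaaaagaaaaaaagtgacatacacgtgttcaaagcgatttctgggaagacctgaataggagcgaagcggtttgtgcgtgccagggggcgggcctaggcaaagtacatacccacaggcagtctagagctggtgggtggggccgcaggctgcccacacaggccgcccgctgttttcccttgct
Motifs were searched on both strands. The capitals in Eda2r are the TEAD letters GGAATG read on the opposite strand, found in 14.7% of all 32851 promoters of this length and in 6 of the 37 family promoters. Those in Fas are the AP-1 letters TGANTCA, found in 7.81% of all promoters and in 7 family promoters. Among these 7, overlapping promoter windows of Tnfsf13b hold the same site. The NF-kB motif was in 1.47% of all promoters and in 1 of the family (Ltb), and the NKX2-1 core CAAGTG was in 13.6% and in 4. None of the 4 motifs was in the Tnfrsf1a or Tnfsf10 window. Such matches describe letters and not bound sites.

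More family regions were lower than higher in the Prdm3/16KO lungs. Of the 152 regions, 50 were lower and 19 higher at an adjusted p below 0.05 (limma, Benjamini-Hochberg over all 83262 regions), and 83 were not called. Among all regions 20.8% were lower and 17% higher, 37.8% called in all, against 32.9% lower and 12.5% higher in the family. The median difference, Prdm3/16KO minus Control, was -0.0650 over the family and -0.0208 over all regions, while called differences had a median size of 0.295 in the family and 0.291 over all. Without Prdm3/16KO replicate 5, 47 family regions were lower and 20 higher. Centring each library on its mean score gave 43 lower and 21 higher family regions, or 67.2% lower among those called, where all regions then had 45.9% lower. On uncentred scores the lower share was 72.5% in the family and 55.1% over all.

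Complete loss and complete gain of a peak were both seen. At 6 of the 152 family regions each of the 5 knockouts had a peak and no control did, against 3.89% of all regions. At 7 the reverse held, against 2.94% of all regions. The scores of the genotypes did not overlap at 42 of the 152 regions, and at 22.9% of all regions. By presence alone, Fisher's exact test with adjustment over 24732 testable regions called 14 of 53 testable family regions more often open in controls and 10 more often open in knockouts, against 23.9% and 23.3% of all. Only 53 of the 152 family regions (34.9%) were open in all 11 libraries, against 43.8% of all regions, and 16 of those 53 were lower and 3 higher, against 17.9% and 12.7% of all such regions.

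**Figure D1:**
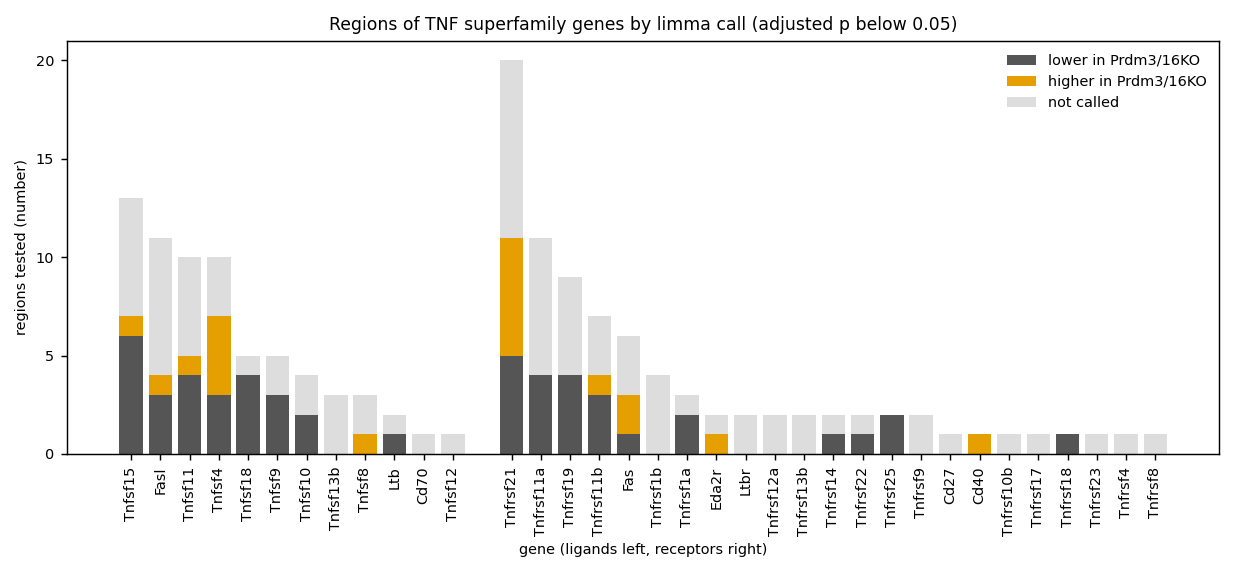
Number of tested regions (vertical axis) at each of the 35 family genes with a region, ligands on the left and receptors on the right, split by limma call. Tnfrsf21 had the most regions, 20, with 5 lower and 6 higher, and Tnfsf15 the most lower regions, 6 of 13.

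The calls were spread over 21 genes. Regions were lower only at 11 genes, higher only at 3 (Tnfsf8, Cd40 and Eda2r) and in both directions at 7 (Tnfsf15, Tnfsf11, Tnfsf4, Fasl, Tnfrsf21, Fas and Tnfrsf11b). Another 14 genes had no called region, among them Ltbr, Tnfrsf1b, Tnfrsf12a, Tnfrsf10b, Tnfsf12 and Tnfsf13b. Tnf itself, Lta, Tnfsf13, Tnfsfm13, Tnfsf14, Tnfrsf13c and Tnfrsf26 had no tested region. Against 20.8% lower and 17% higher over all regions, 26 of the 68 regions at the 12 ligands were lower and 8 higher, as were 24 and 11 of the 84 at the 23 receptors (38.2% and 11.8% for ligands, 28.6% and 13.1% for receptors). Within the receptors, the 5 with a death domain had 10 lower (31.2%) and 8 higher (25%) of 32 regions, the 3 decoy or soluble receptors 4 lower and 1 higher of 10, and the other 15 had 10 lower (23.8%) and 2 higher (4.76%) of 42.

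Calls of lower regions extended to gene ends. Of 36 family regions at most 1 kb from a gene's start or other end, 10 (27.8%) were lower and 2 (5.56%) higher, against 9.56% and 6.59% of all 19354 such regions. The lower ones were at Tnfsf10, Tnfrsf1a and Tnfrsf11b, with 2 each, and at Ltb, Tnfrsf25, Tnfrsf14 and Tnfrsf22, while the higher ones were at Cd40 and Eda2r. Some adjacent windows draw on the same peak, and a summit inside a window was taken before a stronger one outside it. With overlapping peaks merged, 6 of 25 end regions (24%) were lower and 2 higher, against 10.8% lower and 9.48% higher of all. Inside gene bodies 12 of 32 family regions were lower and 4 higher (24.8% and 19% of all), and between genes 28 of 84 were lower and 13 higher (23% and 19.5% of all). No test was made of these shares, because the members were chosen with results known.

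Single calls below depend on the measure where a peak is present on both sides. With presence in place of rank, the calls were lost at the regions given below for Tnfsf8 and Eda2r, at the greatest fall and the rise of Tnfsf15, at the falls upstream of Tnfsf11 and Tnfrsf21, and at the gene end of Tnfrsf11b. Under the same change the calls were also lost at Fas 34382685, at both windows inside Tnfsf11, at the Tnfrsf1a window 518 bp before the start, at Tnfsf4 161401749 and at Tnip1. Called regions with a peak in all 11 libraries cannot be called by presence, and that setting was not followed for them. Among them are Cd40, Tnfrsf18, Tnfrsf22 and the start regions of Tnfsf10 and Tnfrsf1a, whose calls rest on rank alone. With lists of 36467 peaks, they were lost at the fall 31804 bp from Fasl, the falls upstream of Tnfrsf19 and Tnfrsf21, the rise of Tnfrsf11b and the Tab2 region. Ranked by fold enrichment, they were lost at Fas 34374339 (0.0102 in place of 0.129), at Tnfsf15 63718042 and 63742211, at the Tnfrsf11a region 36531 bp into the gene and at Tnfrsf22.

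Among the ligands, the greatest fall in the family lay inside Tnfsf15, which encodes TL1A, the ligand of the death domain receptor Tnfrsf25. The region at chr4:63725996-63726395 lies 18863 bp downstream of the start, near the other end of the gene. Its scores in Prdm3/16KO replicates 1 to 5 were 0, 0.0807, 0.251, 0 and 0, against a lowest, median and highest of 0.911, 0.928 and 0.982 in controls. It was thus among the strongest peaks of every control library and weak or missing in every knockout library, with no overlap. The mean was 0.0663 ± 0.109 in Prdm3/16KO libraries and 0.938 ± 0.0270 in controls (SD, n = 5 and 6), a difference of -0.871 (limma adjusted p = 2.65e-08). The authors' fold enrichment over background was 7.05 and 8.65 in the 2 knockout libraries with a peak among those kept, and 22.1 to 28.6 in controls.

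Around the same gene, 5 further regions were lower, and these were named after their values had been seen. Past the gene's far end, the summit at chr4 position 63718042 scored 0.465 ± 0.114 in Prdm3/16KO libraries and 0.715 ± 0.0525 in controls (limma adjusted p = 0.00135). The summits at 63743865, 63748357 and 63783444 had no peak in any knockout, against peaks in 6, 5 and 5 of the 6 controls. The call at 63748357 was lost under 10 of 24 settings, among them leaving out any single knockout library, and that at 63783444 under the replicate block. A strong peak 2848 bp into the gene scored 0.879 ± 0.0232 in Prdm3/16KO libraries and 0.928 ± 0.0190 in controls, a difference of -0.0490 (limma adjusted p = 0.00780), and this call was lost with centred scores. The 2 regions at the start itself were not called. A single Tnfsf15 region was higher, at chr4:63785439-63785838, 40580 bp before the gene and 45563 bp from Tnfsf8. It scored 0.740, 0.590, 0.581, 0.636 and 0.643 in Prdm3/16KO replicates 1 to 5, against 0, 0.294 and 0.432 as lowest, median and highest control. Every knockout library stood above every control there, and the difference was 0.393 (limma adjusted p = 0.000854).

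**Figure D2:**
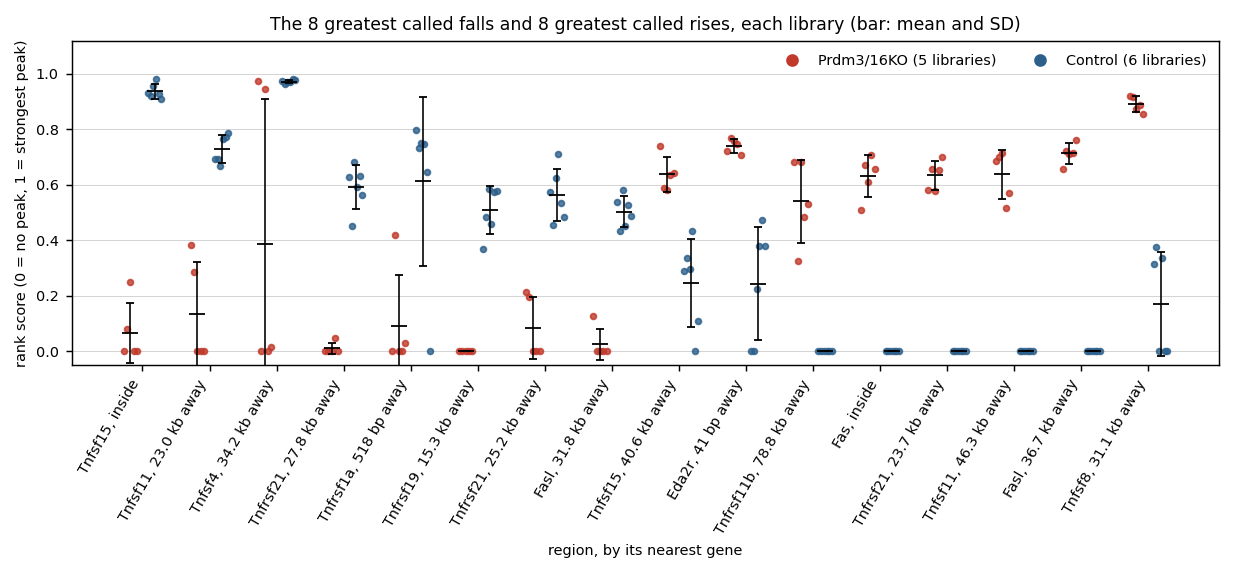
Rank score (vertical axis, 0 without a peak and 1 for the strongest peak) of each library at the 8 greatest called falls and the 8 greatest called rises, Prdm3/16KO left of Control for each region, with bars for mean and SD cut off at the lower axis. At Tnfsf15 all 6 controls lie between 0.911 and 0.982 and all knockouts at or below 0.251. At 5 of the rises all controls lie at 0.

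On the same chromosome, the ligand gene Tnfsf8, which encodes the ligand of CD30, had the greatest rise of the family. Its region at chr4:63892423-63892822 lies 31115 bp from Tnfsf8 and 67162 bp from Tnc. Prdm3/16KO replicates 1 to 5 scored 0.920, 0.919, 0.875, 0.890 and 0.854, against 0, 0.156 and 0.375 as lowest, median and highest control. All knockout libraries held a strong peak, while 3 of the 6 controls held none and the groups did not overlap. The difference was 0.721, from means of 0.891 ± 0.0283 in Prdm3/16KO libraries and 0.170 ± 0.188 in controls (SD, limma adjusted p = 7.04e-06).

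Tnfsf11 encodes RANKL, best known for driving osteoclast formation. It had 10 regions, 4 lower and 1 higher, and the strongest fall and the rise both lay upstream of the gene. At chr14:78330883-78331282, 23040 bp upstream, the Prdm3/16KO scores were 0.384, 0.284, 0, 0 and 0, against 0.668, 0.729 and 0.788 as lowest, median and highest control. No knockout library reached the controls, and 3 had no peak. The difference was -0.596 (limma adjusted p = 2.55e-05). Farther out, at chr14:78354125-78354524, 46282 bp upstream, the Prdm3/16KO scores were 0.686, 0.702, 0.715, 0.518 and 0.571, and all 6 controls were at 0. This region was open in every knockout and in no control, with a difference of 0.638 (limma adjusted p = 6.11e-07, Fisher's exact test adjusted p = 0.00941). The start region of Tnfsf11 had no peak in any knockout library and a highest control score of 0.151, and was not called (limma adjusted p = 0.240). A further pair of windows inside the gene, named after their values had been seen, scored 0.105 ± 0.112 and 0.167 ± 0.168 in Prdm3/16KO libraries and 0.553 ± 0.192 and 0.633 ± 0.0528 in controls, and both were lower, the first not on the lists as deposited or with a -log10 q of at least 5.

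Fasl, the ligand of the death receptor Fas, showed opposite changes less than 5 kb apart. At chr1:161743811-161744210, 36680 bp from the gene, the Prdm3/16KO scores were 0.658, 0.723, 0.710, 0.713 and 0.761, and every control was at 0 (difference 0.713, limma adjusted p = 6.28e-08, Fisher's exact test adjusted p = 0.00941). The next called region, at chr1:161748687-161749086 and 31804 bp from the gene, scored 0.125, 0, 0, 0 and 0 in Prdm3/16KO replicates 1 to 5, against 0.432, 0.507 and 0.582 as lowest, median and highest control. Every control held this peak and 4 of the 5 knockout libraries did not, and the difference was -0.478 (limma adjusted p = 7.63e-06). A further region at summit 161734996, named after its values had been seen, was open in no knockout and in all 6 controls at 0.456 ± 0.0728. Fasl itself is best known from lymphocytes, and none of its 11 regions lay within 1 kb of its ends.

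**Figure D3:**
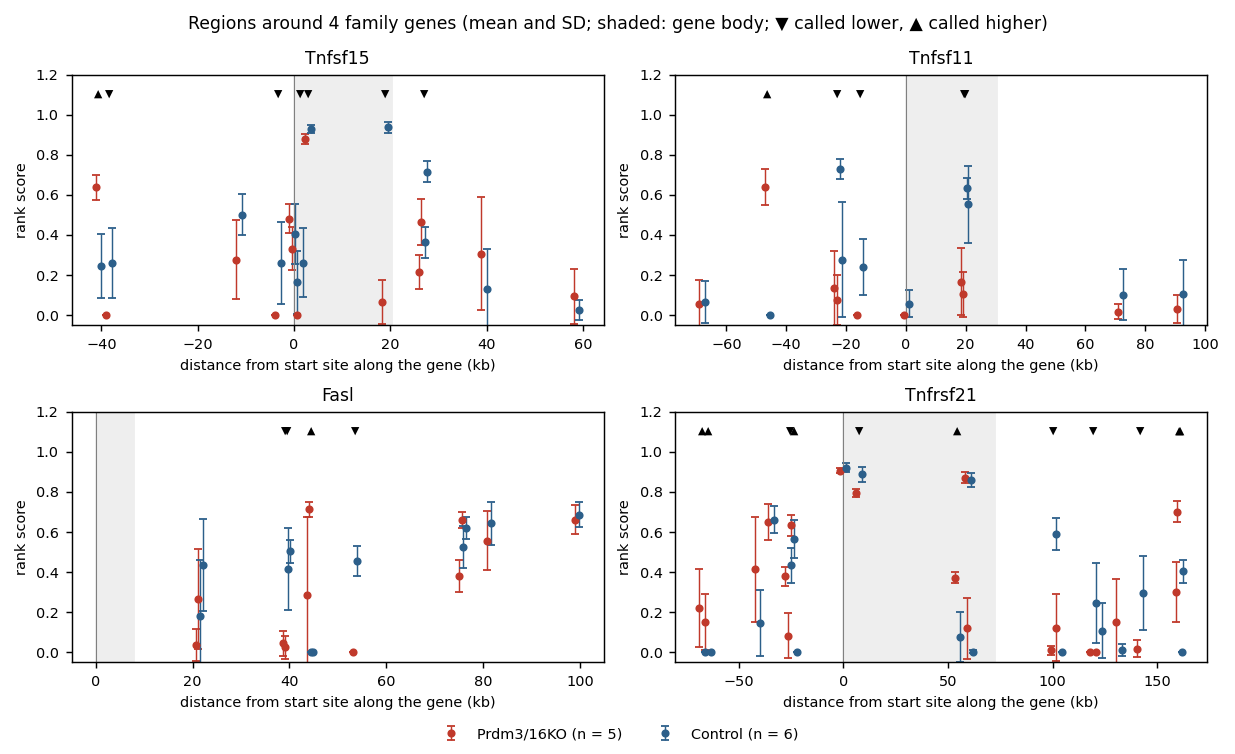
Mean rank score with SD (vertical axis) of every tested region at 4 genes, by distance from the gene's start in kb (horizontal axis, gene direction to the right, gene body shaded), Prdm3/16KO drawn left of Control, with triangles on called regions. Each gene had calls in both directions, with 6 lower and 1 higher at Tnfsf15, 4 and 1 at Tnfsf11, 3 and 1 at Fasl and 5 and 6 at Tnfrsf21. At Fasl the score difference was 0.713 and -0.478 at successive called regions.

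Tnfsf4 encodes OX40L, a costimulator of T cells, and had 3 lower and 4 higher regions of 10. The region at chr1:161452230-161452629 had the third greatest fall by size but is not a firm result. Its Prdm3/16KO scores were 0.975, 0, 0.945, 0 and 0.0143, against 0.962, 0.973 and 0.980 as lowest, median and highest control, so 2 knockout libraries lay in or near the range of the controls. The difference of -0.586 (limma adjusted p = 0.0471) lost its call under 17 of 24 alternative settings, and with overlapping peaks merged it was -0.00960. Among the rises, a further region inside the gene at summit 161401749 scored 0.794 ± 0.0434 in Prdm3/16KO libraries and 0.458 ± 0.245 in controls (limma adjusted p = 0.0172), named after its values had been seen. Its call was lost on the lists as deposited, with a -log10 q of at least 5, when ranked by fold enrichment and with presence in place of rank.

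Tnfsf18, adjacent to Tnfsf4, encodes GITRL, and 4 of its 5 regions were lower. The region with the smallest p, chr1:161576635-161577034, lies 71545 bp from the gene. It scored 0.795, 0.742, 0.780, 0.656 and 0.637 in Prdm3/16KO replicates 1 to 5, against 0.891, 0.906 and 0.934 as lowest, median and highest control. The peak stayed in every library at lower rank in all knockouts (difference -0.189, limma adjusted p = 8.58e-05). The gene for its receptor GITR, Tnfrsf18, had a single region, at chr4:156031545-156031944, that was also lower. This region lies 2851 bp from Tnfrsf18 and 3090 bp from Ttll10, so its assignment is close. Prdm3/16KO scores there were 0.504, 0.488, 0.483, 0.472 and 0.475, against 0.570, 0.639 and 0.728 as lowest, median and highest control, with no overlap (difference -0.158, limma adjusted p = 0.00316).

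Tnfsf10 encodes TRAIL, which triggers death through Tnfrsf10b in mice. Its start region at chr3:27316839-27317238, on the promoter printed above, scored 0.459, 0.650, 0.634, 0.602 and 0.444 in Prdm3/16KO replicates 1 to 5, against 0.662, 0.748 and 0.804 as lowest, median and highest control. The promoter was open in all 11 libraries and ranked below all controls in every knockout, with a difference of -0.184 (limma adjusted p = 0.00466). The window beside it, chr3:27317340-27317739, takes the same peak in controls and scored 0.563, 0.00564, 0.634, 0.00898 and 0.121 in Prdm3/16KO libraries. Its difference of -0.475 (limma adjusted p = 0.00397) became -0.140 for the whole peak when overlapping peaks were merged (limma adjusted p = 0.0269). At the receptor gene, the only Tnfrsf10b region, chr14:69767280-69767679 at the gene end, scored 0.397 to 0.522 in Prdm3/16KO libraries, against 0.404 to 0.646 in controls, and was not called (difference -0.0866, limma adjusted p = 0.218).

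Tnfsf9, which encodes a costimulatory ligand, had 3 lower regions of 5. The call at summit 57110439 was lost under 9 of 24 settings, and its direction reversed when ranked by fold enrichment. That at 57118916 was lost with presence in place of rank and under the replicate block. At chr17:57108667-57109066, 1109 bp from the gene, no knockout library had a peak, against 0.110, 0.338 and 0.450 as lowest, median and highest control (difference -0.318, limma adjusted p = 0.00131, Fisher's exact test adjusted p = 0.00941). The end region of the gene, at summit 57105384, was not called, with 0.434 ± 0.0718 in Prdm3/16KO libraries and 0.449 ± 0.109 in controls.

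Ltb encodes lymphotoxin beta, the membrane partner of lymphotoxin alpha, and its called region does not stand once the peak is taken as a whole. At chr17:35196129-35196528, 24 bp past the gene end, Prdm3/16KO scores were 0.833, 0.0403, 0.0652, 0.0339 and 0.0802, against 0.581, 0.673 and 0.711 as lowest, median and highest control. Replicates 2 to 5 of the knockouts lay far below the controls and replicate 1 above them (difference -0.449, limma adjusted p = 0.0115). The adjacent window 453 bp inside the gene end takes the same peak in controls and scored 0.728 ± 0.0604 in Prdm3/16KO libraries and 0.659 ± 0.0569 in controls. With overlapping peaks merged the difference was 0.0692 and was not called (limma adjusted p = 0.121). The Tnfsf12 region at chr11:69695476-69695875, for the ligand TWEAK, was weak in both genotypes, at 0 to 0.269 in Prdm3/16KO libraries and 0 to 0.209 in controls (limma adjusted p = 0.383), and lies in the overlapping gene Tnfsfm13 as well.

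Among the death domain receptors, Tnfrsf21, which encodes the death receptor DR6, had 20 regions, the most of any family gene, with 5 lower and 6 higher. Its start region at chr17:43016324-43016723 was strong in both genotypes, at 0.888, 0.917, 0.901, 0.922 and 0.902 in Prdm3/16KO libraries, against 0.888, 0.921 and 0.949 as lowest, median and highest control (difference -0.0153, limma adjusted p = 0.316). Of the 11 calls, 2 lay inside the gene and 9 outside it, and those at summits 42951747, 43135816 and 42949151 were lost under 13, 8 and 6 settings. At chr17:43116795-43117194, 27807 bp past the gene, Prdm3/16KO scores were 0, 0, 0, 0.0477 and 0, against 0.450, 0.610 and 0.683 as lowest, median and highest control, with no overlap (difference -0.582, limma adjusted p = 1.46e-06).

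Upstream of Tnfrsf21, a lower and a higher region lay within 2 kb of each other. The lower one, chr17:42991179-42991578, scored 0.214, 0.195, 0, 0 and 0 in Prdm3/16KO libraries, against 0.456, 0.554 and 0.712 as lowest, median and highest control (difference -0.483, limma adjusted p = 6.30e-05). The higher one, chr17:42992633-42993032, scored 0.583, 0.657, 0.576, 0.654 and 0.699 in Prdm3/16KO libraries and 0 in all 6 controls (difference 0.634, limma adjusted p = 2.48e-07, Fisher's exact test adjusted p = 0.00941). Neither pair of groups overlapped. They lie 25176 and 23722 bp before the start, and Cd2ap is the nearest other gene, over 100 kb away.

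Fas, the receptor of Fasl, held a region inside the gene that was open only in knockouts, while its start did not pass the test. The start region chr19:34290445-34290844, on the promoter printed above, scored 0.887, 0.919, 0.920, 0.907 and 0.879 in Prdm3/16KO libraries, against 0.880, 0.904 and 0.941 as lowest, median and highest control (difference -0.00590, limma adjusted p = 0.739). At chr19:34299647-34300046, 9188 bp into the gene, Prdm3/16KO scores were 0.510, 0.673, 0.610, 0.708 and 0.657, and all 6 controls were at 0. The groups did not overlap, and the difference was 0.632 (limma adjusted p = 4.80e-07, Fisher's exact test adjusted p = 0.00941). In the authors' deposited table its fold enrichment was 12.2 to 18.5 in knockout libraries. Further regions beyond the gene, named after their values had been seen, moved both ways. The summit at 34374339 scored 0.847 ± 0.0462 in Prdm3/16KO libraries and 0.718 ± 0.0473 in controls, and that at 34382685 scored 0.252 ± 0.161 and 0.694 ± 0.0750 in the same order.

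Tnfrsf1a encodes the main receptor of TNF, and its promoter was lower. The start region chr6:125349487-125349886, on the promoter printed above and 36 bp before the start, scored 0.563, 0.419, 0.659, 0.561 and 0.546 in Prdm3/16KO libraries, against 0.646, 0.740 and 0.799 as lowest, median and highest control. Replicate 3 of the knockouts exceeded the lowest control, and the other 4 lay below all controls. The difference was -0.184 (limma adjusted p = 0.00292) and had the same size with overlapping peaks merged. The window 518 bp before the start, chr6:125349005-125349404, takes the same peak in 5 controls. It scored 0, 0.419, 0, 0 and 0.0297 in Prdm3/16KO libraries, against 0, 0.740 and 0.799 as lowest, median and highest control (difference -0.523, limma adjusted p = 0.00772), and its call was lost with a required overlap of 200 bp (limma adjusted p = 0.228). The promoter lies 4744 bp from Scnn1a, a sodium channel subunit gene of lung epithelium. The other TNF receptor gene, Tnfrsf1b, had 4 regions and no call. Its start region chr4:145246652-145247051 scored 0.555, 0.264, 0.388, 0.451 and 0.584 in Prdm3/16KO libraries, against 0.498, 0.590 and 0.699 as lowest, median and highest control (difference -0.148, limma adjusted p = 0.0703).

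Tnfrsf25 encodes DR3, the receptor of Tnfsf15. Its region at chr4:152117178-152117577, 1035 bp into the gene, had no peak in any knockout library, against 0, 0.331 and 0.406 as lowest, median and highest control. The peak was present in 5 of 6 controls (difference -0.286, limma adjusted p = 0.00562, Fisher's exact test adjusted p = 0.0321). The other region of the gene, at summit 152120006 and named after its values had been seen, showed the same presence pattern with 0.253 ± 0.164 in controls (limma adjusted p = 0.0148), a call that was lost when ranked by fold enrichment.

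Among the receptors without a death domain, Tnfrsf11a encodes RANK, the receptor of Tnfsf11, and 4 of its 11 regions were lower and none higher. At chr1:105770798-105771197, 9675 bp before the gene, no knockout library had a peak, against 0.0819, 0.389 and 0.514 as lowest, median and highest control (difference -0.354, limma adjusted p = 0.00164, Fisher's exact test adjusted p = 0.00941). Its start region chr1:105780489-105780888 was open in all libraries, at 0.816 to 0.899 in Prdm3/16KO libraries and 0.853 to 0.939 in controls, and was not called (difference -0.0425, limma adjusted p = 0.0692). A further region 36531 bp into the gene, named after its values had been seen, scored 0.633 ± 0.129 in Prdm3/16KO libraries and 0.832 ± 0.0352 in controls (limma adjusted p = 0.00468). The calls at 2 other Tnfrsf11a regions were lost under 14 settings each.

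Tnfrsf19 encodes TROY, a receptor found in embryonic epithelia, and had 4 lower regions of 9 and none higher. The call at summit 61069321 was lost under 9 of 23 settings, among them leaving out any single knockout library. That at 61035148 was lost when ranked by fold enrichment, and that at 61012539 with presence in place of rank. At chr14:61061925-61062324, 15270 bp upstream, no knockout library had a peak, against 0.369, 0.528 and 0.584 as lowest, median and highest control (difference -0.508, limma adjusted p = 6.44e-06, Fisher's exact test adjusted p = 0.00941). The start region chr14:61037767-61038166 scored 0.775 to 0.850 in Prdm3/16KO libraries and 0.801 to 0.866 in controls and was not called (difference -0.0244, limma adjusted p = 0.304). Ranked by the authors' fold enrichment in place of -log10 p, the same start was higher in knockouts, by 0.0944 (limma adjusted p = 0.00457).

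**Figure D4:**
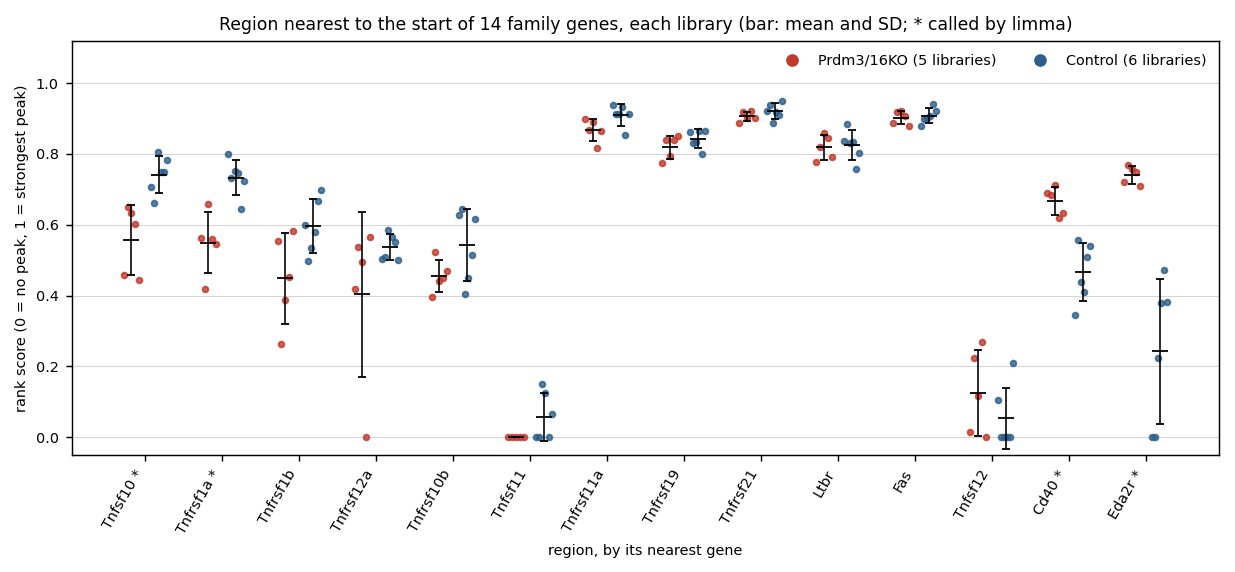
Rank score (vertical axis) of each library at the region nearest to the start of 14 family genes, Prdm3/16KO left of Control, with bars for mean and SD and an asterisk on called regions. Tnfsf10 and Tnfrsf1a were lower, Cd40 and Eda2r higher, and the other 10 were not called, with Fas, Tnfrsf21 and Ltbr open in every library.

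Eda2r, which encodes a receptor for an isoform of ectodysplasin, had the greatest difference of the 14 start regions compared. At chrX:97377075-97377474, 66 bp before the start and overlapping the promoter printed above, Prdm3/16KO scores were 0.722, 0.770, 0.758, 0.748 and 0.709, against 0, 0.301 and 0.473 as lowest, median and highest control. All knockout libraries stood above all controls, of which 4 of 6 had a peak. The difference was 0.499, from 0.741 ± 0.0252 in Prdm3/16KO libraries and 0.243 ± 0.204 in controls (SD, limma adjusted p = 0.000353). The authors' fold enrichment was 14.04 to 17.49 in knockout libraries and 9.78 to 13.7 in the controls with a peak among those kept. Peaks on chromosome Y numbered 1 to 9 in Prdm3/16KO libraries and 3 to 20 in controls, and the part of fetal sex in this X-linked result was not tested. Of 2245 tested regions on chromosome X, 14.9% were higher and 19.6% lower.

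Cd40, a receptor best known from B cells and also present on epithelium, was higher at its only region. At chr2:165055403-165055802, 11 bp from the gene end, Prdm3/16KO scores were 0.691, 0.684, 0.712, 0.619 and 0.634, against 0.346, 0.474 and 0.556 as lowest, median and highest control, with no overlap (difference 0.201, limma adjusted p = 0.00292). Tnfrsf14 encodes HVEM. Its region at chr4:154927976-154928375 had no peak in any knockout and a peak in 4 of 6 controls, with a median of 0.393 and a highest control of 0.481 (difference -0.285, limma adjusted p = 0.0280). That call was lost without any single one of Prdm3/16KO replicates 1 to 4 or of Control replicates 1, 3, 4 and 6.

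The start regions of the remaining receptors named by rule were not called. Ltbr, the lymphotoxin beta receptor, scored 0.777, 0.819, 0.858, 0.845 and 0.792 in Prdm3/16KO libraries at chr6:125313714-125314113, against 0.758, 0.833 and 0.885 as lowest, median and highest control (difference -0.00617, limma adjusted p = 0.853). This region lies 29 bp from Ltbr and 357 bp from Scnn1a, so its assignment is close. Tnfrsf12a, the receptor of Tnfsf12, scored 0.419, 0.536, 0.494, 0 and 0.567 in Prdm3/16KO libraries at chr17:23677356-23677755, against 0.501, 0.530 and 0.585 as lowest, median and highest control (difference -0.133, limma adjusted p = 0.241). A single knockout library without a peak set the size of that difference.

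Of the decoy and soluble receptors, Tnfrsf11b encodes osteoprotegerin, the soluble decoy of Tnfsf11, and had 3 lower regions and 1 higher of 7. The higher one, chr15:54171583-54171982, lies 78836 bp from the gene and scored 0.681, 0.325, 0.684, 0.482 and 0.529 in Prdm3/16KO libraries, with all 6 controls at 0 (difference 0.540, limma adjusted p = 2.23e-05, Fisher's exact test adjusted p = 0.00941). At the gene end, 2 further regions named after their values had been seen were lower. The summits at chr15 positions 54278265 and 54278697 scored 0.153 ± 0.100 and 0.283 ± 0.184 in Prdm3/16KO libraries, against 0.466 ± 0.0695 and 0.654 ± 0.0636 in controls (limma adjusted p = 0.00103 and 0.00135). Tnfrsf22, a mouse decoy receptor of TRAIL, scored 0.781, 0.803, 0.830, 0.808 and 0.756 in Prdm3/16KO libraries at chr7:143649482-143649881, against 0.818, 0.868 and 0.897 as lowest, median and highest control. The groups overlapped, and the difference of -0.0659 (limma adjusted p = 0.00971) was not called with scores centred per library.

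Other genes of the pathway, called signalling genes here, had calls at close to the shares of all regions. Their 5 lists held genes downstream of the receptors, and also superfamily members and sheddases outside the naming rule. Together the lists of 57 genes had 283 regions at 55 genes. Of these regions 53 were lower (18.7%) and 43 higher (15.2%), against 20.8% and 17% of all regions, with a median difference of -0.00790. Receptor adaptors and kinases had 20 lower and 13 higher of 100 regions. The region of smallest p there was at chr2:101690224-101690623 inside Traf6, an adaptor of RANK and CD40, where no knockout had a peak and controls had a lowest, median and highest score of 0.703, 0.807 and 0.879 (difference -0.801, limma adjusted p = 2.87e-08). Tab2, an adaptor of the TAK1 kinase, had a distant region that scored 0 in every Prdm3/16KO library and 0.560 ± 0.0867 in controls (limma adjusted p = 2.57e-06).

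Death machinery genes had 6 lower (20%) and 5 higher (16.7%) of 30 regions, close to the 20.8% and 17% of all regions. Casp8, the initiator caspase of death receptors, had a region at 0 in all Prdm3/16KO libraries and 0.472 ± 0.152 in controls (limma adjusted p = 0.000138), and Bid, its substrate, one with 0.0188 ± 0.0420 in Prdm3/16KO libraries and 0.402 ± 0.0525 in controls (limma adjusted p = 4.01e-05). NF-kB genes and their kinases had 5 lower (8.33%) and 11 higher (18.3%) of 60 regions. Inside Nfkb1 a region scored 0.815 ± 0.0184 in Prdm3/16KO libraries and 0.964 ± 0.0124 in controls (limma adjusted p = 1.78e-07) and another 0.723 ± 0.0573 and 0.245 ± 0.133 in the same order (limma adjusted p = 5.27e-05). Feedback inhibitors had 12 lower (21.8%) and 7 higher (12.7%) of 55. Among them Tnfaip3, which encodes A20, had 6 of its 14 regions lower and none higher, and it was named after its values had been seen. In the same list, Tnip1 scored 0.0652 ± 0.0947 in Prdm3/16KO libraries and 0.651 ± 0.0425 in controls at a region inside the gene (limma adjusted p = 1.78e-06), and Otulin 0.0231 ± 0.0516 and 0.456 ± 0.122 in the same order (limma adjusted p = 0.000136).

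Superfamily members outside the naming rule and the sheddases that release TNF ligands had 10 lower (26.3%) and 7 higher (18.4%) of 38 regions. Among all regions 20.8% were lower and 17% higher. Adam17, the TNF converting enzyme, scored 0.570 ± 0.0512 in Prdm3/16KO libraries and 0 in all controls at a region inside the gene (limma adjusted p = 6.34e-07). Adam10 scored 0.711 ± 0.0599 in Prdm3/16KO libraries and 0.0408 ± 0.0862 in controls at its higher region (limma adjusted p = 8.09e-07), and of its 3 other regions 1 was lower.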

How the data were processed

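ATAC-seq was made from EpCAM+ lung cells at E17.5, 5 Prdm3/16KO and 6 Control libraries, and 1 peak list per library was used. Per the submitters' processing notes, MACS2, DiffBind 3, deepTools and build mm10 were used, with no roles named. The sources used here give neither aligner nor peak caller options. The authors' deposited score (540 to 1000) was left aside. Each peak's fold enrichment (a ratio over background), -log10 p and -log10 q are likewise the authors' values, made within single libraries. Read depth is unknown and bears on all of them, so libraries were compared by rank, and no interval for counting error can be given.

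By -log10 p, the top 72935 peaks of each list were kept, as many as the shortest list holds. Windows of 400 bp were centred on summits, the best ranked being kept where windows overlapped, and a library had a region if a peak overlapped it by at least 100 bp. Testing was limited to regions open in 3 or more of the 11 libraries. Scores were tested with limma 3.58.1 under R 4.3.3 (robust, with trend, genotype as the only term, Benjamini-Hochberg at 0.05 over all regions), and presence with Fisher's exact test, two-sided and likewise adjusted. The steps were tested on simulated data. Genes came from a RefSeq table of 21887 protein-coding genes (GRCm38.p6, the same build as mm10), without exons, so no region is called exonic or intronic. Scripts ran under Python 3.11.15 with scipy 1.17.1, pandas 2.3.3, numpy 2.4.6 and matplotlib 3.10.9.

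The members and lists were chosen with earlier results of these data known. The rule for named regions took the 8 greatest called falls and 8 greatest called rises, the called region of smallest p at every further family gene, the start regions of 15 genes (Tnf had none), and per signalling list the 2 called regions of smallest p. No 2 lists shared more than 0.0161% of intervals. Alternatives covered peak ranking and list length, the authors' q, overlap, merged peaks, the library filter, centring, presence scores, fit options, replicate block, sex chromosomes, gene distance and leaving out each library.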

Additional observations from a re-analysis of the deposited data

Results flagged for a closer look

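In 18 of 150 groups of 5 or 6 libraries, 1 score lay apart from the rest of its group by Dixon's criterion. Chance meets this criterion in about 1 in 20 groups of continuous values, but libraries without a peak are tied here. A lone peak in a group of such ties meets it however weak the peak is. The 18 groups therefore cannot be compared with that rate, and no cause was tested. Regions are named by gene and summit position.

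Among Prdm3/16KO libraries, replicate 1 scored 0.125 at Fasl 161748887 and 0.0939 at Tnfrsf21 43158344, where the other knockouts were at 0, and 0.833 at Ltb 35196329, where the others were at 0.0339 to 0.0802. Replicate 2 scored 0.419 at Tnfrsf1a 125349205, where the others reached 0.0297, and 0.111 at Tnfsf18 161567585 and 0.0938 at Bid 120903642, where the others were at 0. Replicate 3 scored 0.115 at Otulin 27600726, where the others were at 0. Replicate 4 had no peak (0) at Tnfrsf12a 23677556, where the others scored 0.419 to 0.567. It scored 0.0477 at Tnfrsf21 43116995, where the others were at 0, and 0.880 at Tnfsf18 161601352, where the others scored 0.829 to 0.839.

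Among controls, replicate 2 scored 0.0219 at Tnfsf4 161442916, where the others were at 0, and 0.215 at Adam10 70688514, where the others reached 0.0298. Replicate 3 scored 0.176 at Tnfsf11 78288115, where the others scored 0.566 to 0.717. Replicate 5 scored 0.0145 at Fasl 161749319, where the others scored 0.432 to 0.582, and 0.853 at the Tnfrsf11a start 105780689, where the others scored 0.912 to 0.939. It had no peak (0) at Tnfrsf25 152117378, where the others scored 0.262 to 0.406. Replicate 6 had no peak (0) at Tnfrsf1a 125349205, where the others scored 0.646 to 0.799, and scored 0.176 at Casp8 58831087, where the others scored 0.494 to 0.605.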

How the results depend on the processing

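Family regions were called lower 50 times and higher 19 times, signalling regions 53 and 43 times. With lists of 36467 peaks the family counts were 25 and 12 of 69 regions (36.2% and 17.4%). The signalling counts were then 18 and 28 of 149, and 41.0% of all regions were called, 52.1% of them lower. With presence in place of rank the counts were 18 and 11 of 152 family regions, and 26 and 9 of 283 signalling regions. All regions were then called at 17.4%, and 55.8% of those calls were lower. Within 20 kb of a gene 32 of 94 family regions were lower and 6 higher (34.0% and 6.38%). All regions, at any distance, had 20.8% lower and 17% higher. Higher signalling regions numbered 24 of 316 on the lists as deposited and 23 of 293 with a -log10 q of at least 5. Of all called regions, 67.4% and 67.0% were lower in these 2 settings, and the cause was not tested. Leaving out 1 library at a time gave 43 to 48 lower and 16 to 20 higher family regions, and 42 to 56 lower and 33 to 39 higher signalling regions. By presence, 24 family regions were called, and 13 to 16 with a library left out, where fewer libraries lower the reach of the exact test. Replicate numbers were treated as not pairing the samples, because the labels give no pairing. Same-numbered libraries correlated at -0.0234 to 0.139 and other pairs at -0.0840 to 0.0809, and 2 of 5 knockouts correlated best with their own number. Such weak correlations cannot settle whether libraries were paired. A replicate block gave 42 lower and 17 higher family regions and 44 lower and 29 higher signalling regions. The median of all regions was -0.0208, but -0.0543 on the lists as deposited and -0.00111 after centring. Of 79 called regions followed, 30 kept call and direction in every setting in which they were followed, and 48 lost the call in some. Those 30 were followed in 23 to 25 settings each, so not every setting covers every region. Presence was not followed for regions with a peak in all 11 libraries, which it could not call. Direction reversed at Ltb 35196329 with merged peaks (0.0692), and with ranking by fold enrichment at the Tnfrsf19 start 61037967 (0.0944), Tnfsf15 63742211 (0.0273), Tnfsf18 161601352 (0.00588) and Tnfsf9 57110439 (0.00758); the cause was not tested. Unknown depth and the cut to 72935 peaks limit what a missing peak means.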
